A study of Homo sapiens with 2 samples.

Results

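The annexins are a family of proteins that dock onto negatively charged phospholipids when calcium rises. The members described here are the 10 annexin genes ANXA1, ANXA2, ANXA3, ANXA4, ANXA5, ANXA6, ANXA7, ANXA9, ANXA11 and ANXA13, taken from the 19775 genes named on the arrays. They were chosen by their symbol in the platform annotation, where a probe set had to carry exactly 1 symbol. This gave 20 of the 41091 probe sets with 1 symbol. Expression was measured on 2 Affymetrix U133 Plus arrays with RNA from immunoprecipitates of 293T cells, an established line from human embryonic kidney that carries the SV40 large T antigen. The miR-941 array came from cells transfected with synthetic miR-941 at 30 nmol/l. Its antibody entry names Ago2, an Argonaute protein, which carries microRNAs to their target mRNAs. The control array came from cells of the same line transfected with a scrambled oligonucleotide at 30 nmol/l. Its title names Ago2 precipitation, but nonimmune IgG beads are entered as its antibody. If that entry is right, effects of the antibody and of the oligonucleotide cannot be told apart.

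Each group is 1 array of 1 cell line, so the differences have no replicate check and no p-value. No array held input RNA, so recovery in the precipitate and the mRNA level in the cells cannot be told apart. Nor can fewer cells with an mRNA and less of it per cell. Values are the authors' RMA expression values, taken as log2. A difference is the value on the miR-941 array minus that on the control array, so that 1 stands for 2-fold. The mean over both arrays classed a probe set as detected above 0.92, as bright above 5, and as dim in between. The level of 0.92 is close to the median of the control array, so detected is a cut on level and no call of presence. Brightness also depends on the probes, so the order of probe sets of different genes is not an order of mRNA amounts.

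The annexin protein has a core of repeated helical domains that holds the calcium sites, preceded by a tail that differs between members and binds their partners. Through these tails some annexins recruit S100 or penta-EF-hand proteins. Annexins also link membranes to each other and to actin, and help to reseal a torn plasma membrane. Annexin A5 is widely used as a probe for phosphatidylserine on dying cells, and annexin A1 is known for limiting inflammation.

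The transfected microRNA is shown because its seed decides which mRNAs it can pair with. The mature sequence is from the RefSeq table for GRCh38.p14, where it is the same at 5 loci, among them chr20:63919495-63919517 on the plus strand. Capitals mark the seed, bases 2 to 8 from the 5′ end.
hsa-miR-941: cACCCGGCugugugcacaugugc
No other mature microRNA name in that table carried this seed. Seed matches in annexin mRNAs were not analysed here.

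Annexin mRNAs showed small differences between the arrays, and none reached 2-fold. Of the 10 genes, 8 had a detected probe set, where 13144 of all 19775 genes had 1 or more. Of the 20 annexin probe sets 13 were detected, where 23302 of all 41091 probe sets with 1 symbol were. Of these 13 probe sets 11 read higher on the miR-941 array, against 44.2% of all detected probe sets. By the brightest probe set, 7 of the 8 detected genes read higher on the miR-941 array and 1, ANXA1, read lower. The median difference was 0.28, with a range from -0.80 to 0.46. Over all 13144 detected genes the median was 0.00, 46.3% read higher and 42.4% read lower. At 2-fold, 0.51% of all detected genes passed, and at 1.5-fold 5.79%, where ANXA1 was the only annexin to pass by its brightest probe set. These values were in view when the genes were chosen, so the counts are a description and nothing is read from them.

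**Figure D1:**
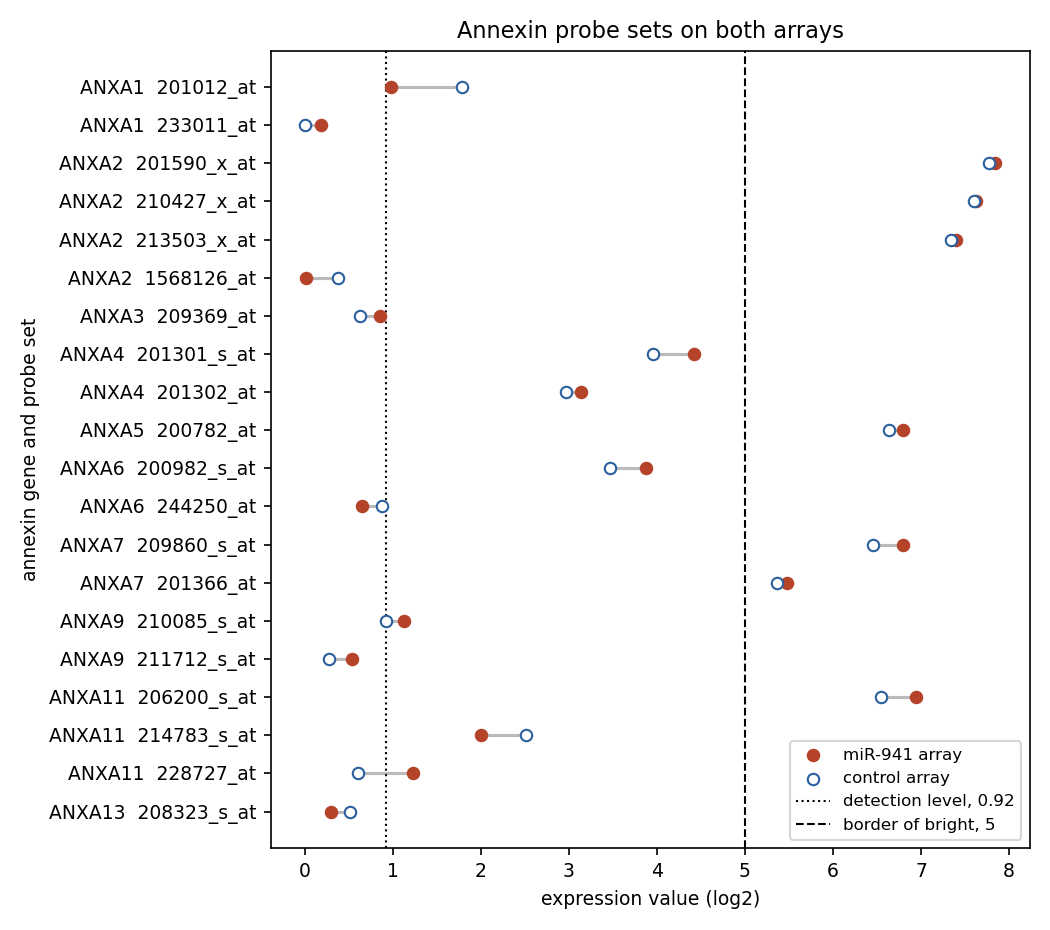
Expression value (log2, horizontal axis) of each of the 20 annexin probe sets (rows) on the miR-941 array (filled) and the control array (open). The dotted line is the detection level of 0.92 and the dashed line the border of bright at 5; the 7 bright probe sets all lie slightly further right on the miR-941 array, and ANXA1 201012_at shows the widest gap of the detected ones, toward lower values.

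All 7 bright probe sets, which belong to ANXA2, ANXA5, ANXA7 and ANXA11, read higher on the miR-941 array. Their differences ran from 0.01 to 0.40 with a median of 0.11. Over all 7412 bright probe sets the median was 0.00 and 47.8% read higher. The 6 dim annexin probe sets ran from -0.80 to 0.46, with 4 higher and 2 lower, where 42.5% of all dim probe sets read higher and 41.2% lower. Dim probe sets spread more over the whole platform, with an SD of differences of 0.36 against 0.23 for bright ones. The 7 annexin probe sets below the detection level ran from -0.37 to 0.63, 4 higher and 3 lower, where 44.6% of all undetected named probe sets read higher and 25.8% lower. The border of detection passed between ANXA9 210085_s_at, with a mean of 1.02, and ANXA11 228727_at, with a mean of 0.918.

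ANXA2 is the annexin that joins S100A10 in a tetramer at the plasma membrane, where the complex binds actin and plasminogen. Its probe set 201590_x_at read 7.84 on the miR-941 array and 7.77 on the control array, a difference of 0.08. Probe set 213503_x_at read 7.40 on the miR-941 array and 7.35 on the control array (0.05). Probe set 210427_x_at read 7.62 on the miR-941 array and 7.61 on the control array (0.01). The 3 differences averaged 0.05 ± 0.03 (SD over 3 probe sets of the same arrays). ANXA2 was thus close to equal on both arrays, and of detected probe sets within 0.5 of the level of 201590_x_at, 70.0% differed by as much or more. All 3 carry the suffix _x_at, which marks probes that may also match other sequences, and ANXA2 has processed pseudogenes. The probe set named for the pseudogene ANXA2P2, also _x_at, read 5.20 on the miR-941 array and 4.95 on the control array, so signal from ANXA2 and this copy cannot be told apart. The remaining ANXA2 probe set, 1568126_at, read 0.01 on the miR-941 array and 0.38 on the control array, below the detection level on both.

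ANXA5 binds phosphatidylserine and forms a lattice on membranes. Its only probe set, 200782_at, read 6.80 on the miR-941 array and 6.64 on the control array. The difference of 0.17 lay within the 5th to 95th percentile of detected probe sets of like level, which ran from -0.39 to 0.33. Of those probe sets 43.0% differed by as much or more.

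ANXA7, also called synexin, was described from its ability to fuse secretory granules. Probe set 209860_s_at read 6.80 on the miR-941 array and 6.45 on the control array, a difference of 0.35 (1.27-fold). This lay just outside the 5th to 95th percentile of probe sets of like level, -0.40 to 0.33, and 11.3% of them differed by as much in either direction. Probe set 201366_at read 5.48 on the miR-941 array and 5.37 on the control array (0.11), well inside the range of its level. Both ANXA7 probe sets read higher, and their mean difference was 0.23 ± 0.17 (SD over 2 probe sets).

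ANXA11 has a long tail rich in glycine, tyrosine and proline, tethers RNA granules to lysosomes, and is mutated in some families with amyotrophic lateral sclerosis. Its bright probe set, 206200_s_at, read 6.94 on the miR-941 array and 6.54 on the control array, a difference of 0.40 (1.32-fold). This was above the 95th percentile of 0.33 at that level, and 7.30% of probe sets there differed by as much in either direction. Its dim probe set, 214783_s_at, read 2.01 on the miR-941 array and 2.52 on the control array, a difference of -0.51. The detected ANXA11 probe sets therefore lay on opposite sides of 0, with a median of -0.06, and the gene has no settled direction. The third probe set, 228727_at, read 1.23 on the miR-941 array and 0.60 on the control array, with a mean just under the detection level.

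**Figure D2:**
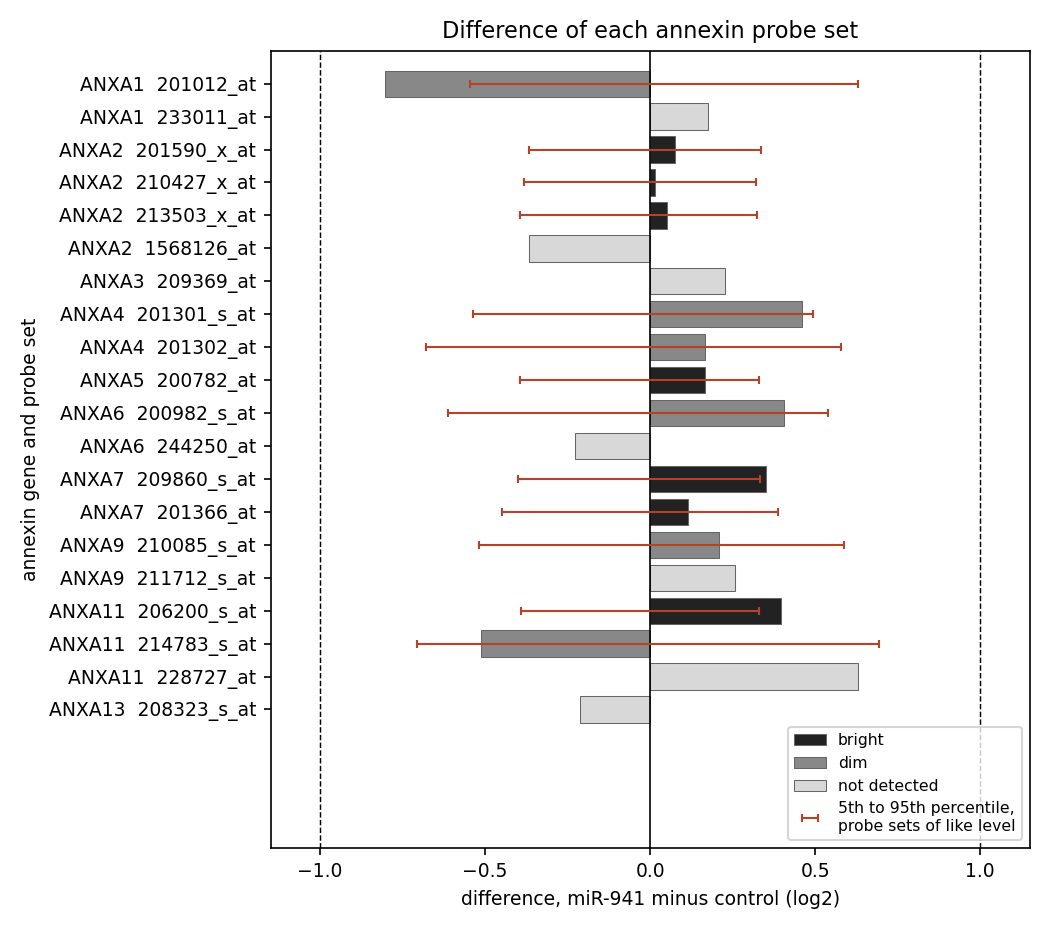
Difference of each annexin probe set (rows), miR-941 minus control (log2, horizontal axis); bar shade gives bright, dim or not detected, red bars the 5th to 95th percentile of differences of detected probe sets within 0.5 of the same level (drawn for detected annexins), dashed lines 2-fold. Among detected probe sets, only ANXA1 201012_at (-0.80), ANXA11 206200_s_at (0.40) and ANXA7 209860_s_at (0.35) pass their red bars.

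ANXA4 is an annexin of epithelia, kidney included, that assembles into sheets on membranes. Probe set 201301_s_at read 4.42 on the miR-941 array and 3.96 on the control array, a difference of 0.46 (1.37-fold), the highest among the 13 detected annexin probe sets. Of detected probe sets of like level 14.9% differed by as much. Probe set 201302_at read 3.13 on the miR-941 array and 2.97 on the control array (0.17), a size that 67.8% of its like-level probe sets reached. Both ANXA4 probe sets read higher, with a mean of 0.31 ± 0.21 (SD over 2 probe sets).

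ANXA6 is the member with a doubled core and acts on endosomes and cholesterol transport. Probe set 200982_s_at read 3.87 on the miR-941 array and 3.47 on the control array, a difference of 0.41, which 23.7% of like-level probe sets reached. Its other probe set, 244250_at, read 0.65 on the miR-941 array and 0.87 on the control array, below the detection level and in the opposite direction. The difference of ANXA6 therefore rests on 1 detected probe set.

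ANXA1 was the only detected annexin whose brightest probe set read lower on the miR-941 array. Annexin A1 acts outside the cell through formyl peptide receptors and was named lipocortin for restraining phospholipase A2. Probe set 201012_at read 0.98 on the miR-941 array and 1.79 on the control array, a difference of -0.80 (0.573-fold). This was beyond the 5th percentile of -0.55 at its level, and 3.16% of the 6559 detected probe sets there differed by as much in either direction. The reading on the miR-941 array was close to the detection level, so the size of the difference is poorly set. The second probe set, 233011_at, read 0.18 on the miR-941 array and 0.00 on the control array, undetected on both.

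ANXA9 was detected only just above the detection level, and ANXA3 and ANXA13 were below it. ANXA9 is an atypical member whose core has lost the usual calcium sites, and ANXA13 is an annexin of the gut epithelium that can be anchored by myristate. ANXA9 probe set 210085_s_at read 1.13 on the miR-941 array and 0.92 on the control array (0.21), and 211712_s_at read 0.53 on the miR-941 array and 0.28 on the control array. ANXA3 read 0.86 on the miR-941 array and 0.63 on the control array on its only probe set. ANXA13 read 0.30 on the miR-941 array and 0.51 on the control array on its only probe set. These readings do not show that the mRNAs were absent, and their differences have little meaning one by one. The difference of 0.21 of ANXA9 210085_s_at occurred in the same size, to 6 decimals and in either direction, in 3001 of the 54675 probe sets. That of ANXA3 occurred in 2012, as did that of ANXA6 244250_at. All 7 undetected annexin probe sets shared their size of difference with at least 10 others, as did 3 of the 6 dim ones and 0 of the 7 bright ones. Besides ANXA9 210085_s_at the dim ones were ANXA4 201302_at, whose size occurred in 149 probe sets, and ANXA11 214783_s_at, whose size occurred in 23. Shared sizes were not counted over all undetected, dim and bright probe sets, so nothing particular to the annexins is read from them.

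**Figure D3:**
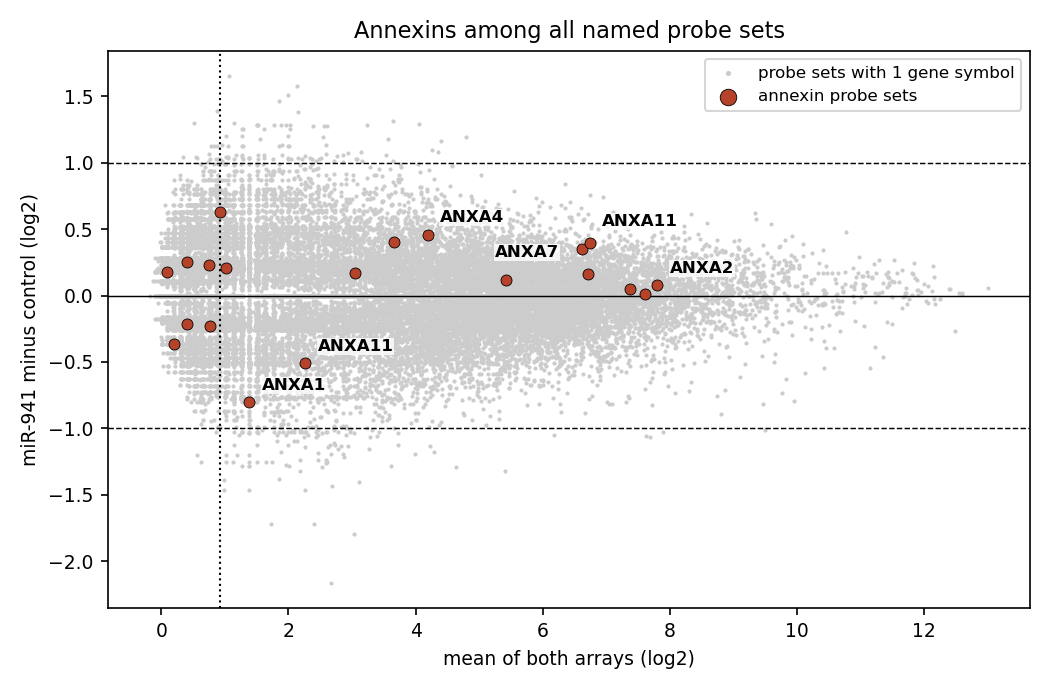
Difference, miR-941 minus control (log2, vertical axis), against the mean of both arrays (log2, horizontal axis) for the 41091 probe sets with 1 gene symbol (grey) and the 20 annexin probe sets (red). The dotted line is the detection level of 0.92 and dashed lines mark 2-fold; the bright annexins sit slightly above 0, while the dim and undetected ones lie on both sides, as the grey points do.

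Agreement between probe sets of a gene was the only check on technical spread. Of the 4 annexins with several detected probe sets, ANXA2, ANXA4 and ANXA7 had each of theirs higher and ANXA11 had them on both sides of 0. Over the whole platform, 33.5% of the 6102 genes with several detected probe sets had them all on the same side. Among genes with 2 detected probe sets, as ANXA4, ANXA7 and ANXA11 have, the share was 44.1%. With 3, as ANXA2 has, it was 23.9%. The distance between the highest and lowest difference was 0.06 for ANXA2, 0.24 for ANXA7, 0.29 for ANXA4 and 0.91 for ANXA11. Over all genes with 2 detected probe sets its median was 0.26, and over those with 3 it was 0.46. The 3 probe sets of ANXA2 are all bright and all _x_at, and no comparison at like level was made. The pooled SD of differences within a gene was 0.31. The brightest probe sets of ANXA1, ANXA4, ANXA6, ANXA11 and ANXA7 differed by more than this SD, and those of ANXA2, ANXA5 and ANXA9 by less. This SD was pooled over bright and dim levels. The share of all detected genes that pass it was not counted. Their differences had an SD of 0.30, so nothing is read from this split. Probe sets of a gene share the same hybridisation, so the spread within a gene leaves out variation between cultures and precipitates.

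The control probe sets along the actin and GAPDH mRNAs also differed between the arrays. The 5′ control of actin read 6.49 on the miR-941 array and 7.15 on the control array (-0.66), while its 3′ control read 9.81 on the miR-941 array and 9.85 on the control array (-0.04). For GAPDH the difference was -0.19 at the 5′ end and 0.05 at the 3′ end. The part of RNA quality in the annexin differences was not tested. Of the 7 marker genes expected in 293T cells 6 were detected, 3 higher (NEFL 0.39, STMN1 0.44 and PAX2 0.37) and 3 lower (VIM -0.12, NEFM -0.26 and INA -0.59), while LHX1 was not detected. Of 16 markers of other cell types with a probe set 5 were detected: PECAM1, VWF, HBB, COL1A1 and KRT5. Without HBB the linear values of the other 15 summed to 29.6 on the miR-941 array and 27.8 on the control array. With HBB, whose 3 bright probe sets are all _x_at, they summed to 216.1 on the miR-941 array and 151.7 on the control array. The other 11, among them PTPRC, CD14, EPCAM and CDH1, had means below the detection level, though EPCAM read 1.21 on the miR-941 array and 0.53 on the control array. The part of other cell types in the annexin differences was not tested.

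The partners that bind annexin tails gave differences of either sign, none of them 2-fold. S100A10, which joins annexin A2, read 7.38 on the miR-941 array and 7.53 on the control array (-0.15), against 0.08 for ANXA2. S100A11, a partner of annexin A1, read 6.93 on the miR-941 array and 6.68 on the control array (0.26), against -0.80 for ANXA1. In both pairs the annexin and its partner read on opposite sides of 0, but ANXA2 was close to equal on both arrays and ANXA1 was near the detection level. S100A1 had 0.50 and S100A4 -0.21, both near the detection level, while S100A6, S100A12 and S100B were not detected. The 4 detected S100 genes split evenly, 2 higher and 2 lower, with a median of 0.05.

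Penta-EF-hand proteins are calcium sensors that bind the tails of annexins A7 and A11. Sorcin (SRI), a partner of annexin A7, read 8.81 on the miR-941 array and 8.69 on the control array (0.12), and its dimmer probe set 2.84 on the miR-941 array and 2.10 on the control array (0.74). PDCD6, also called ALG-2 and a partner of annexin A11, read 6.51 on both arrays (0.01). By the brightest probe sets, ANXA7 (0.35) read on the same side of 0 as SRI, and ANXA11 (0.40) on the same side as PDCD6. However, PDCD6 was close to equal on both arrays, and the detected probe sets of ANXA11 lay on both sides of 0. PEF1 had 0.12, GCA 0.24 and CAPNS1, the small calpain subunit, 0.00. The median of the 5 detected genes was 0.12. Of them 4 read higher, 0 lower and 1 the same, where 46.3% of all detected genes read higher and 42.4% lower. PDCD6IP had no probe set with 1 symbol.

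Genes of membrane repair, where annexins assemble around the tear, were detected for 10 of 11. Their median was 0.09; 5 read higher, 3 lower and 2 the same. VPS4B, an ATPase that takes ESCRT polymers apart, had the highest difference: it read 5.11 on the miR-941 array and 4.65 on the control array (0.45). CHMP4B, a subunit of those polymers, had the lowest: it read 6.94 on the miR-941 array and 7.11 on the control array (-0.16), but its dimmer probe set had 0.73. The calpain gene CAPN2 had -0.16 with its dimmer probe set at 0.47, and the caveolin gene CAV1 had 0.42 with its other probe set at -0.33. DYSF, MYOF and AHNAK, at 0.18, 0.19 and 0.26, and CAVIN1, at -0.13, read below 2 on both arrays. The other detected probe set of AHNAK read lower, and the median of its detected probe sets was 0.03. CAPN1 and SYT7 read the same on both arrays by their brightest probe sets, and TRIM72 was not detected.

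**Figure D4:**
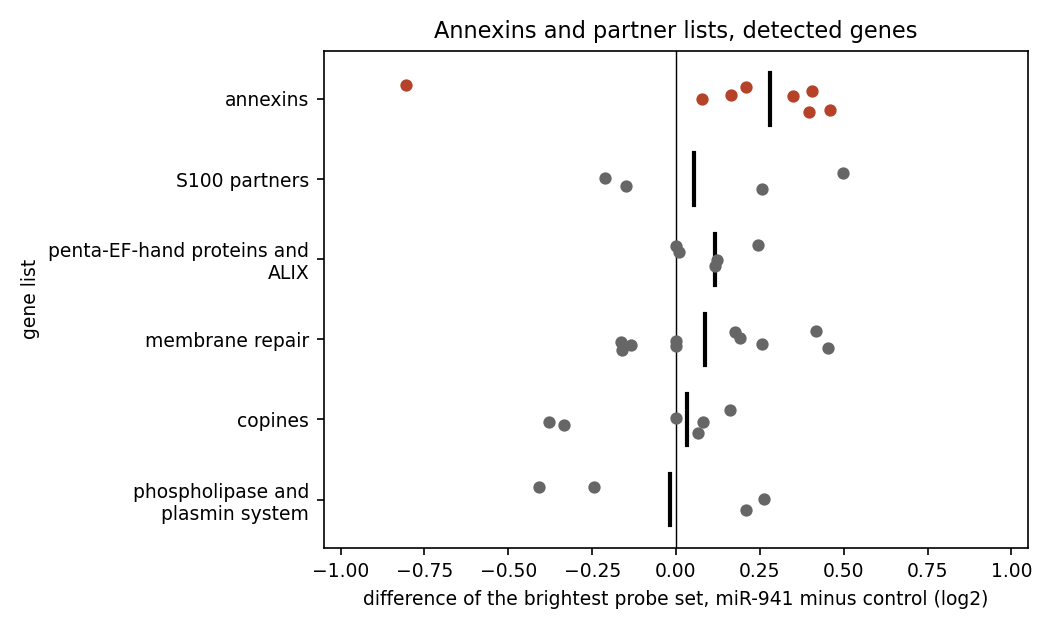
Difference of the brightest probe set of each detected gene, miR-941 minus control (log2, horizontal axis), for the annexins (red) and 5 partner lists (grey); black ticks are list medians and the vertical scatter within a row has no meaning. Annexins have a median of 0.28 with ANXA1 far to the left at -0.80, and the lists lie on both sides of 0 with medians from -0.02 to 0.12; no formyl peptide receptor was detected.

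The remaining lists were the copines, another family of calcium-dependent phospholipid binders, the receptors of annexin A1, and genes of phospholipase A2 and the plasmin system. Of 6 detected copines 3 read higher, 2 lower and 1 equal (median 0.03). CPNE3, with the highest difference, read 8.89 on the miR-941 array and 8.73 on the control array (0.16), and its second probe set had 0.18. CPNE6 had the lowest, -0.38, at a level near detection, but its other detected probe set read higher and their median was -0.06. CPNE1 had -0.34. None of FPR1, FPR2 and FPR3 was detected. PLA2G4A, the cytosolic phospholipase A2, read 4.07 on the miR-941 array and 3.81 on the control array (0.26). PLAT, the tissue plasminogen activator whose action is aided by cell surface annexin A2, read 5.74 on the miR-941 array and 5.99 on the control array (-0.24). PLAUR had -0.41 on its brightest probe set, with its other 2 probe sets higher. Over all 6 lists 29 of 41 genes were detected. Of these 16 read higher, 9 lower and 4 the same, and their median was 0.06. Among all detected genes 46.3% read higher and 42.4% lower.

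Promoter windows are given as a description of the genes' sequence and were not set against the differences. The RefSeq table for GRCh38.p14 gave 13 windows for 9 genes, all but ANXA13, each running from 250 bases before to 50 after a transcript start. ANXA1, ANXA5 and ANXA7, chosen after their values were seen, are printed 5′ to 3′ on the strand of the gene. They have a single listed start, as ANXA2, ANXA3 and ANXA9 do, and are shown because they span the CG content of these windows from none upward. Capitals mark every CG dinucleotide. The windows are chr9:73151615-73151914 on the plus strand for ANXA1, chr4:121696931-121697230 on the minus strand for ANXA5, and chr10:73414009-73414308 on the minus strand for ANXA7.
ANXA1: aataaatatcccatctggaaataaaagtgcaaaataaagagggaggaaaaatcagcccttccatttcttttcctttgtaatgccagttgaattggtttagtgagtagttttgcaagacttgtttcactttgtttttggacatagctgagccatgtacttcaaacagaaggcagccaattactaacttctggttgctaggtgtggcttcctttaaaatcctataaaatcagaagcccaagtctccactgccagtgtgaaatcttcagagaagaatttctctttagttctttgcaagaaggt
ANXA5: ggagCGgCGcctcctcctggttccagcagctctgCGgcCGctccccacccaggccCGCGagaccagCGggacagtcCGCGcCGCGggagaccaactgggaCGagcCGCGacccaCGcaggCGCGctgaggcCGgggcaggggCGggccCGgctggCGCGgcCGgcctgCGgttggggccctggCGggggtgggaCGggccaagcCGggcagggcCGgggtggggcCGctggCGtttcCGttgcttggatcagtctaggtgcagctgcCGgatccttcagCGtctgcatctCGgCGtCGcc
ANXA7: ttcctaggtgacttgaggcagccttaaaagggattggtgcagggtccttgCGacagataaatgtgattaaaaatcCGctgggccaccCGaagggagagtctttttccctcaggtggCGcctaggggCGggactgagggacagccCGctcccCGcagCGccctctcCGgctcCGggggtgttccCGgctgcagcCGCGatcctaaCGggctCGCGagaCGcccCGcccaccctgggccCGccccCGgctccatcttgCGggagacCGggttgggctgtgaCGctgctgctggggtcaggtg
The ANXA1 window holds 0 CG dinucleotides, as do 3.96% of the 35116 promoter windows in the table, and 37.7% of its bases are G or C. The ANXA5 window holds 36 and the ANXA7 window 23, against a median of 14 over all windows. ANXA2 and ANXA3 had 32 and 25, and ANXA9 had 5. The windows of genes with several starts held 44 and 27 for ANXA4, 25 and 10 for ANXA6, and 30, 12 and 7 for ANXA11.

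The letters GGGCGG, on either strand, were found in 7 of the 13 annexin windows and in 45.0% of all windows. Each such match contains a CG that is also counted above. The ANXA7 window has 3 matches, the ANXA5 window 1 and the ANXA1 window 0. The letters TATAAA, on either strand, were found in 3 of the 13 and in 11.5% of all windows. ANXA1 has 1 such match, as do ANXA2 and 1 window of ANXA11. A match is a description of these letters and not a binding site.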

How the data were processed

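Biotin-labelled RNA from immunoprecipitates of 293T cells was measured on 1 array for each group. The authors used the RMA package of R to make their deposited probe set values, per the design text, and these were read here as log2. Names without version or role in the submitters' processing notes are affy, MAS5 and RMA. Log base and centring are not given in the sources used here. The values reached 13.7, above the 11.1 that the natural log of a 16-bit reading allows, and the array medians were 0.98 (miR-941) and 0.92 (control). Of 54675 probe sets 21.6% held the same value on both arrays.

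Gene names came from the platform's annotation table: 41091 had 1 symbol, 1801 several, 11721 none, and 62 were Affymetrix controls. Entrez identifiers gave current symbols for 41037 of these from the RefSeq table of GRCh38.p14. A gene stood by its brightest probe set. For each annexin probe set, the detected probe sets with a mean within 0.5 of its own gave the spread of differences at like level. With 1 array per group no test was made; the number of arrays limits the precision. All 10 members are named with all probe sets, and of each partner list every detected gene could be named, the highest and lowest always. The members and lists were chosen with earlier results of these data known. The counting was tested on simulated data with 200 shifted genes. These data had a single probe set per gene and shifts of 2-fold or more. They therefore do not bear on the choice of probe set or on differences as small as those of the annexins. Python 3.11.15, pandas 2.3.3 and statsmodels 0.14.6 were used. Alternatives changed the probe sets, the level filter, the scaling and the threshold.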

Additional observations from a re-analysis of the deposited data

How the results depend on the processing

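With 1 array per group there was no replicate to leave out. No paired analysis was possible because a single array per group leaves no pairs. With differences averaged over detected probe sets, or with their median, ANXA11 had -0.057 in place of 0.40, so that 2 annexins in place of 1 read lower, and 18 genes in all were at least 2-fold lower in place of 38. Without _x_at and _s_at probe sets 4 annexins had a value, 3 of them higher, with a median of 0.14 in place of 0.28, and 5 partner genes in place of 9 read lower; no annexin then had 2 detected probe sets, so agreement between them had no value. With no level filter 2 of 10 annexins read lower. Above the 75th percentile of level, a mean of 3.37, all 6 annexins left read higher and 0 lower, 9 partner genes read higher, and 4 and 7 genes in all were 2-fold higher and lower in place of 29 and 38; this filter leaves fewer genes. At 1.5-fold, 1 annexin passed (ANXA1), with 384 genes higher and 377 lower in all. Low values raised to the detection level, centring, a lowess trend removed and quantile normalization left 7 annexins higher and 1 lower, with medians from 0.26 to 0.28. Of 66 values of single annexins under the alternatives, 64 kept their sign and moved by less than 0.31, the pooled SD within genes, and 2 turned, both of ANXA11. Many of these values could not move. Centring subtracted a median of 0, other level filters kept the same brightest probe set, and averaging cannot change a gene with a single detected probe set. The count is therefore no measure of how firm the values are. Signal near the detection level limits ANXA1, ANXA3, ANXA9 and ANXA13.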

Other observations

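Probe sets named for other annexin genes and for annexin pseudogenes were not members. Another 3 probe sets carry an annexin symbol together with a second symbol, so their gene is not settled. Of these, the bright one listed for both ANXA2 and SNU13 read 8.57 on the miR-941 array and 8.40 on the control array (0.17). The pair listed for both ANXA8 and ANXA8L1 read 0.995 on both arrays, just above the detection level, and 0.65 on the miR-941 array and 0.45 on the control array, below it. ANXA10, an annexin of the stomach, read 0.19 on the miR-941 array and 0.00 on the control array, below the detection level. The pseudogene ANXA2P1 read 0.52 on the miR-941 array and 0.59 on the control array, and ANXA2P3 read 0.76 on both. ANXA2R, which encodes a receptor described for annexin A2, read 1.39 on both arrays, and its neighbours ANXA2R-OT1 and ANXA2R-AS1 had differences of -0.23 and 0.28 at dim levels.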
